A study of Mus musculus with 8 samples.

Results

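Genes for subunits of the BAF family of chromatin remodelers, for the Polycomb complexes PRC1 and PRC2 and for BET proteins were followed in RNA-seq libraries of 8 mouse tumors. The 43 genes were taken by symbol from a fixed list, and all 43 were found among the 49671 gene identifiers of the count table. They comprised 9 BAF core and ATPase genes, 11 genes whose products define BAF variants, 7 genes of the module bound to the ATPase, 7 PRC2 genes, 7 PRC1 genes and 2 BET genes. All tumors had the genotype labelled HprtCre; Ewsr1-loxP; Atf1-loxP, in which Cre recombinase is made from the Hprt locus, active in nearly every cell type, and can join Ewsr1 to Atf1, the gene fusion of human clear cell sarcoma. The mice received no drug, and the tumors were snap frozen when the primary tumor made the animal morbid. The titles call the libraries 1, 2L, 2R, 3, 4a, 4b, 5 and 6 of a group CCS. The labels do not explain the numbers and suffixes, and none states that samples came from separate animals, so the p-values measure only the spread between these libraries. There was no control tissue and no second genotype. The comparisons were therefore between related genes within a library, between libraries, and between the listed genes and all other genes.

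BAF complexes use ATP to slide or evict nucleosomes and are built from an ATPase, a shared core, and exchangeable subunits that sort them into canonical BAF, PBAF and noncanonical BAF. Polycomb repressive complex 2 methylates histone H3 and Polycomb repressive complex 1 ubiquitinates histone H2A, and together they keep developmental genes silent in opposition to BAF. BET proteins bind acetylated histones and recruit the transcription machinery, and sarcomas driven by fusion genes often depend on members of these families.

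Library 3 was the shallowest, with 4817902 counts, and library 2L the deepest, with 19682149. The listed genes took 0.118% to 0.244% of the counts. Library 3 stood apart in other ways too. It had 17952 genes with a count against 21350 to 24763 in the others, and 39.9% of its counts lay in Gm26917, Gm42418 and Gm23935, genes whose counts often carry ribosomal RNA reads, against 0.551% to 14.3%. Its TMM normalization factor was 0.394, and without such a factor the median gene of library 3 was shifted by -1.55 (log2) from the other 7, so its CPM values (counts scaled to a common library size with TMM) rest on that factor, while ratios between genes within the library do not. Libraries 2L and 3 also held skeletal muscle transcripts, summed over 8 markers to 20860 CPM and 6677 CPM against 15.1 to 113 CPM elsewhere, led by Ttn and Myh4. Of lineage genes known from human clear cell sarcoma, looked at after the data were seen, Mitf reached 30.3 to 130.5 CPM and S100b 4.20 to 114 CPM, while Dct ranged from 0 counts in library 6 to 74.0 CPM in library 3. Pmel had at most 47 counts and Sox10 at most 6 counts in a library, and Mlana and Tyr had 0 in all 8. In bulk tumors, fewer cells of a type and less RNA per cell cannot be told apart.

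Of the 43 genes, 40 passed the filter on low counts, which asked for 0.920 CPM before scaling in every library and kept 11505 genes. Dpf1, Dpf3 and Actl6b did not pass. Levels were compared between genes as CPM per kb of exon, averaged over the 8 libraries. The highest were Smarcc2 at 24.1 ± 8.20 (SD, n = 8), Pbrm1 at 23.5 ± 3.40, Smarca4 at 22.9 ± 11.3 and Brd2 at 19.0 ± 8.02 CPM per kb. The lowest that passed were Phf19 at 0.745 ± 0.299 and Bcl7a at 0.755 ± 0.612 CPM per kb. The median listed gene stood at the 52.6th percentile of the genes kept by this level. Smarcc2, Pbrm1, Smarca4 and Brd2 lay at percentiles 86.5 to 89.9. Smarcc2, Smarca4 and Brd2 had their top in library 3, at 38.5, 50.2 and 38.2 CPM per kb, and Pbrm1 did not. The order of these genes therefore depends on that library and on the length used.

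**Figure D1:**
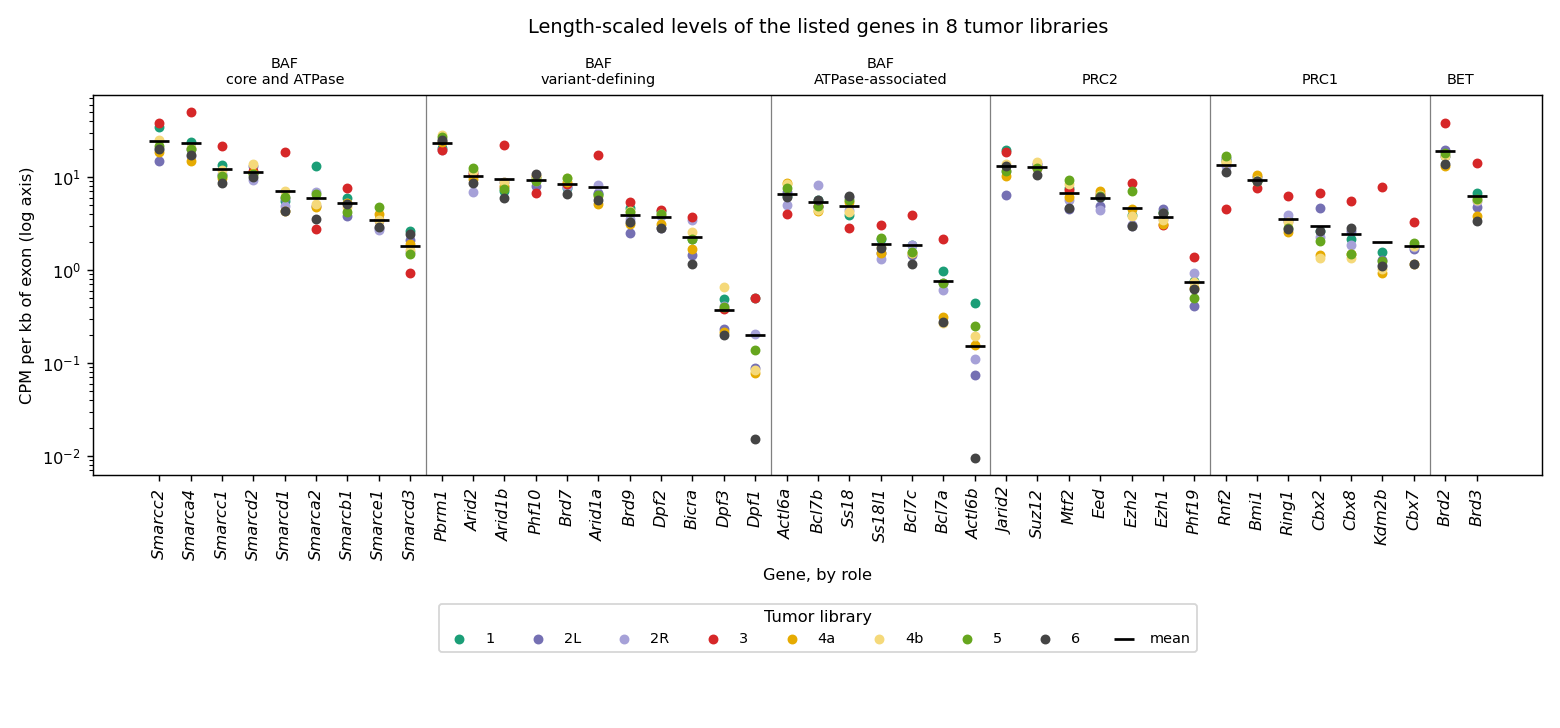
Level of each listed gene in CPM per kb of exon (log axis), by role and, within a role, by mean; points are the 8 libraries and bars their means. Smarcc2, Smarca4, Pbrm1 and Brd2 led their groups, Dpf1, Dpf3 and Actl6b lay lowest, and library 3 was often the highest point; Actl6b had 0 counts in library 3, which a log axis cannot show.

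Smarca4 and Smarca2 encode the mutually exclusive ATPases of BAF. Smarca4 (chr9:21616169-21704230, mm10, plus strand) was lowest in library 4a at 96.2 CPM, had a median of 129 CPM and was highest in library 3 at 325 CPM. Smarca2 (chr19:26605050-26778322, plus strand) was lowest in library 3 at 38.9 CPM, had a median of 71.4 CPM and was highest in library 1 at 185 CPM. Library 3 was thus the top for Smarca4, outside the range of the other 7, and the bottom for Smarca2. Per kb of exon, Smarca4 exceeded Smarca2 in 8 of 8 libraries, by 1.99 ± 0.997 (SD, n = 8) on the log2 scale (two-sided exact sign-flip permutation test, p = 0.0078, the smallest that 8 libraries allow; adjusted over 15 pairs, 0.0146). The ratio was 1.85 in library 1, 2.45 to 4.87 in the 6 others, and 18.4 in library 3, where it rested on 610 and 73 counts. Without library 3 the mean was 1.67 ± 0.48 (n = 7). With the longest transcript as length in place of all exons, the mean was 0.74 (exact permutation test, adjusted p = 0.0361) and the ratio was above 0 in 7 of 8 libraries, library 1 then being at -0.36. With means of the 6 title numbers, none of the 12 pairs called over 8 libraries, Smarca4 to Smarca2 among them, passed (exact permutation test, adjusted p = 0.0521 or 0.0721). The stretches of DNA before both starts are shown because the ratio of the pair in library 3 lay far from the other 7. They are RefSeq sequences on GRCm38.p6, 250 bases of Smarca4 (chr9:21615919-21616168) and the 140 bases of Smarca2 that lie before its first annotated exon (chr19:26604910-26605049).
Smarca4: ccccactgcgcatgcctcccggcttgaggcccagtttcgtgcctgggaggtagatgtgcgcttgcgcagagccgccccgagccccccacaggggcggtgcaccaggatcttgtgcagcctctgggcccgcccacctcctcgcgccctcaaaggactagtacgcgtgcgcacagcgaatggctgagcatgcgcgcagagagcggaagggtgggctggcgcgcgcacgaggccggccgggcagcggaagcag
Smarca2: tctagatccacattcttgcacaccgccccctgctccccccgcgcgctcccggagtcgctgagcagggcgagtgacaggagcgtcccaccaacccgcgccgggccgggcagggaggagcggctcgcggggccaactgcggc
They held 25 and 16 CG dinucleotides at a GC content of 70.8% and 73.6%. Neither held TGACG, the core of the site bound by ATF and CREB proteins, on either strand, nor TTTCCCGC or TTTGGCGC, forms of the E2F site.

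Smarcb1, the subunit lost in rhabdoid tumors, ran from 30.3 CPM in library 2L to 60.7 CPM in library 3 with a median of 41.3 CPM. Its RNA was thus present in every library, though bulk RNA does not tell which cells made it. Smarce1, an HMG-box subunit, ran from 17.8 to 31.3 CPM. The scaffold gene Smarcc2 exceeded its paralog Smarcc1 in 8 of 8 libraries. The log2 ratio of Smarcc1 to Smarcc2 was -0.98 ± 0.26 (n = 8; exact permutation test, adjusted p = 0.0146), and library 3, at -0.83, lay inside the range of the others. The adaptor paralogs Smarcd1, Smarcd2 and Smarcd3 are used in place of one another. Smarcd2 was the steadiest, at 33.2 to 49.8 CPM, and exceeded Smarcd1 per kb in 7 of 8 libraries, with a log2 ratio of Smarcd1 to Smarcd2 of -0.84 ± 0.63 (exact permutation test, adjusted p = 0.0195). The exception was library 3, at 0.67. Smarcd1 had 74.0 CPM there against 17.2 to 28.5 CPM in the other 7. Smarcd3, the form typical of heart and muscle, was lowest in library 3 at 4.79 CPM (9 counts) and highest in library 1 at 13.3 CPM. In library 2L, which like library 3 held muscle transcripts, it had 10.7 CPM, against a median of 9.02 CPM and 7.94 CPM in library 2R. The part of muscle in these values was not tested. The exons of Smarcd3 share 2466 bases with Chpf2 on the opposite strand. Strand handling in the counting is not given, so part of the Smarcd3 counts may be reads of Chpf2.

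Subunits that define BAF variants all passed the filter except Dpf1 and Dpf3. Arid1a and Arid1b, the alternative DNA-binding subunits of canonical BAF, were both present. Arid1a had 59.1 CPM in library 4a, a median of 75.0 CPM and 197 CPM in library 3. Arid1b had 74.2 CPM in library 6, a median of 100 CPM and 276 CPM in library 3. For both, library 3 lay far above the other 7, which overlapped closely. Per kb, Arid1a was below Arid1b by -0.28 ± 0.24 (log2, n = 8; exact permutation test, adjusted p = 0.0195), but with the length of the longest transcript in place of all exons the ratio was 0.055, so the order of this pair depends on the length used. Arid2, Pbrm1, Brd7 and Phf10, which define PBAF, were steady. Their highest library exceeded their lowest by 1.78, 1.46, 1.49 and 1.62 times, and library 3 was neither the highest nor the lowest for Arid2, Pbrm1 and Brd7. Brd9 and Bicra, which define noncanonical BAF, ran from 17.4 to 37.3 CPM and from 9.19 to 29.3 CPM. Brd9 was below Brd7 per kb in 8 of 8 libraries, by -1.12 ± 0.35 (log2; exact permutation test, adjusted p = 0.0146), though with the longest protein-coding transcript as length the difference was -0.14 and was not called. Dpf2, the ubiquitous PHD-finger subunit, had 18.4 to 28.8 CPM and exceeded Dpf1, its neuronal paralog, by 4.47 ± 1.04 and Dpf3 by 3.26 ± 0.36 (log2, 8 of 8 libraries; exact permutation test, adjusted p = 0.0146 for both). Dpf1 had 2 to 30 counts and Dpf3 3 to 37 counts in a library.

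The module bound to the ATPase showed the same order of general over neuronal forms. Actl6a, the actin-like subunit of dividing cells, had 15.4 CPM in library 3, a median of 25.4 CPM and 33.6 CPM in library 4a. Actl6b, its neuronal counterpart, had 0 counts in library 3, which at 3 counts allows up to 1.60 CPM, and 1 to 21 counts in the others. The log2 ratio of Actl6a to Actl6b was 5.58 ± 1.14 (8 of 8 libraries; exact permutation test, adjusted p = 0.0146). Actl6b was highest in library 1 (1.86 CPM), and Dpf1 had 2.66 CPM both in library 1 and in library 3. The 8 neuron markers, of which 3 passed the filter, summed to 346 CPM in library 1 and to 53.3 to 202 CPM in the others, lowest in library 3. Of the leading markers, Stmn2 was highest in library 1 (161 CPM) and Map2 in library 4b (149 CPM). The part of these transcripts in the Actl6b and Dpf1 counts was not tested. Ss18, the subunit fused in synovial sarcoma, ran from 26.6 CPM in library 3 to 59.3 CPM in library 6 and exceeded its paralog Ss18l1 per kb in 7 of 8 libraries, by 1.32 ± 0.70 (log2; exact permutation test, adjusted p = 0.0195). In library 3 the ratio was -0.12, from 50 and 25 counts. With the longest transcript as length the mean was 2.51 and the ratio was above 0 in 8 of 8 libraries, 1.06 in library 3. Of the BCL7 proteins, small BAF subunits, Bcl7a had an SD of 1.005 on the log2 scale, the largest of the 40 genes. That of Kdm2b was 0.993, and its highest value exceeded its lowest by more, 8.45 against 7.88 times for Bcl7a. Bcl7a had 20.2 CPM in library 3, 5.76 to 9.23 CPM in libraries 1, 2L, 2R and 5, and 2.57 to 2.98 CPM in libraries 4a, 4b and 6. Bcl7c ran from 8.41 to 28.2 CPM, highest in library 3, and Bcl7b from 10.3 to 19.6 CPM, highest in library 2R.

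**Figure D2:**
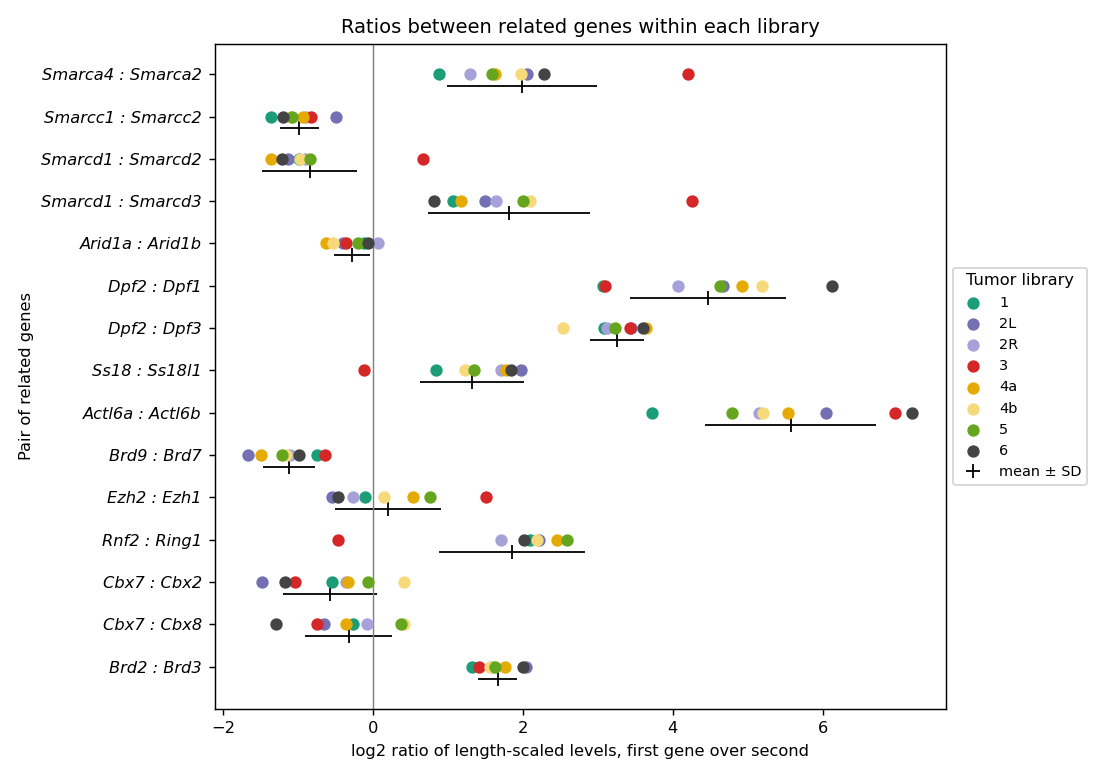
Log2 ratio of length-scaled levels of the first gene over the second within each library (points), with the mean ± SD over 8 libraries (crosses with bars) for 15 pairs. Library 3 lay far from the other 7 for Smarca4 over Smarca2 (4.20), Smarcd1 over Smarcd3 (4.26), Smarcd1 over Smarcd2 (0.67) and Rnf2 over Ring1 (-0.47), while Smarcc1 over Smarcc2 and Brd2 over Brd3 did not set it apart.

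PRC2 was represented by Suz12, Eed and its 2 methyltransferases, while its histone-binding partners Rbbp4 and Rbbp7 were not on the list. Suz12, its scaffold, ran only from 51.7 to 72.5 CPM, and Eed, which reads the methyl mark, from 17.0 to 26.8 CPM. Of the 2 methyltransferases, Ezh2 belongs to dividing cells and Ezh1 to resting cells. Ezh2 had 19.6 CPM in library 2R, a median of 25.8 CPM and 57.5 CPM in library 3, followed by 46.9 CPM in library 5. Ezh1 had 22.4 CPM in library 3, a median of 28.4 CPM and 33.3 CPM in library 2L, so that library 3 was again the top for one and the bottom for the other. Their log2 ratio per kb averaged 0.20 ± 0.70 over the 8 libraries and was above 0 in 4 of them (exact permutation test, adjusted p = 0.477). Ezh2 exceeded Ezh1 in libraries 3, 5, 4a and 4b, at 1.51, 0.77, 0.54 and 0.15 on the log2 scale, and was below it in libraries 1, 2R, 6 and 2L, at -0.11 to -0.54. With the length of the longest transcript, the mean was 0.64 and was called, so only the differences between libraries, not the order of the pair, are free of the choice of length. The accessory subunits split: Jarid2 was high, at 62.8 to 190 CPM with its top in library 1, Mtf2 intermediate at 26.0 to 53.1 CPM, and Phf19 low at 2.08 to 6.92 CPM.

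Because Ezh2 is a gene of dividing cells, 4 genes and the ratio of Ezh2 to Ezh1 were set against a proliferation score, the mean log2 CPM of 20 cell cycle genes that include none of the listed ones. Same-number libraries were averaged, which left 6 values, and 5 relations were tested. The score was 5.42 in library 3 and 3.78 to 4.70 in the others. The ratio of Ezh2 to Ezh1 had Pearson's r = 0.88 (exact permutation test over n = 6, p = 0.0236, adjusted 0.0579) and Spearman's rho = 0.83 (p = 0.0583, adjusted 0.146). Leaving out the numbers 3 and 6, farthest from the median score, lowered r to 0.41. That leaves few values over a narrow range of scores, so the drop cannot tell whether the relation rests on those samples. Without number 3 alone, r was 0.63 for the ratio, 0.46 for Ezh2, -0.66 for Ezh1, 0.19 for Smarca4 and 0.41 for Smarca2. For Ezh2 alone r was 0.78 (exact permutation p = 0.0347, adjusted 0.0579), rho was 0.83 (p = 0.0583, adjusted 0.146), and r was 0.15 without 3 and 6. For Ezh1 r was -0.87 (exact permutation p = 0.025, adjusted 0.0579), rho was -0.49 (p = 0.356, adjusted 0.524), and r was -0.82 without 3 and 6. For Smarca4 r was 0.90 (exact permutation p = 0.0611, adjusted 0.0764), rho was 0.43 (p = 0.419, adjusted 0.524), and r was -0.30 without 3 and 6. For Smarca2 r was -0.43 (exact permutation p = 0.376, adjusted 0.376), rho was -0.20 (p = 0.714, adjusted 0.714), and r was -0.25 without 3 and 6. No relation passed after adjustment, and without a normalization factor the r of Ezh1, Smarca2 and the ratio of Ezh2 to Ezh1 turned to 0.31, 0.40 and -0.10.

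**Figure D3:**
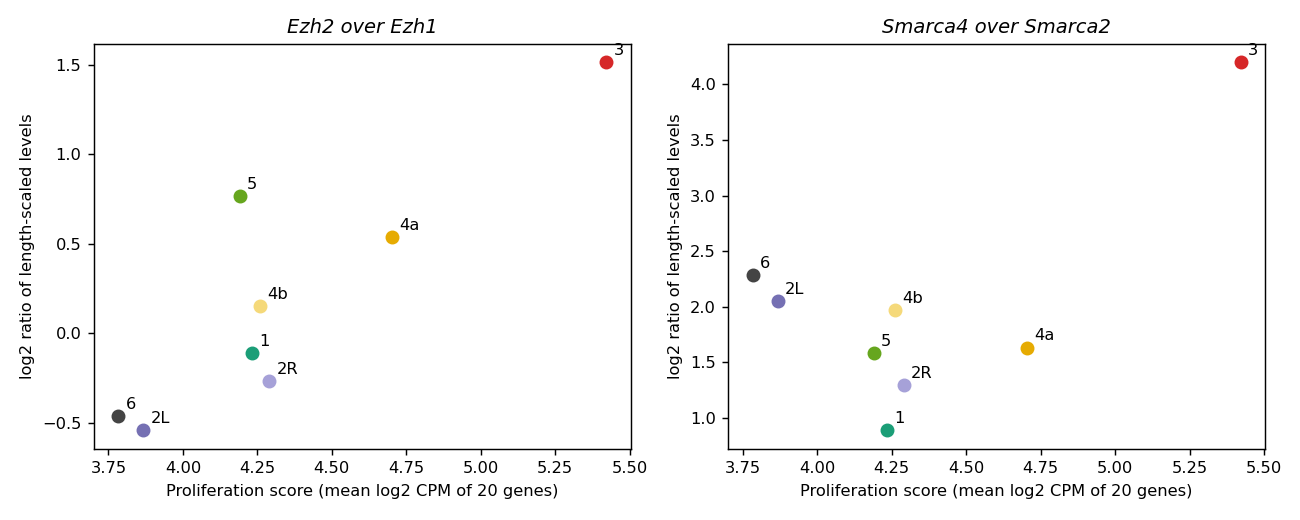
Log2 ratio of length-scaled levels of Ezh2 over Ezh1 (left) and Smarca4 over Smarca2 (right) against the proliferation score, 1 point per library. Library 3 has the highest score (5.42) and the highest value of both ratios (1.51 and 4.20); among the other 7 libraries the Smarca4 ratio was highest in library 6, which has the lowest score (3.78).

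PRC1 uses RNF2 or RING1 as its ubiquitin ligase. Rnf2 (chr1:151458004-151500955, minus strand) had 47.2 to 70.2 CPM in 7 libraries and 18.6 CPM in library 3. Ring1 (chr17:34020792-34024680, minus strand) had 8.36 to 12.8 CPM in the same 7 and 20.2 CPM in library 3. Neither gene's value in library 3 overlapped the other 7, and they lay on opposite sides. The longest transcripts of Rnf2 and Ring1 have a GC content of 39.5% and 56.9%, whose part in this was not tested. Rnf2 exceeded Ring1 per kb in 7 of 8 libraries, by 1.85 ± 0.97 (log2, n = 8; exact permutation test, adjusted p = 0.0195), and without library 3 by 2.18 ± 0.29. In library 3 the log2 ratio was -0.47, from 35 and 38 counts, with a 95% interval of -1.17 to 0.23 that covers counting error only. The 250 bases before the RefSeq starts of the pair (GRCm38.p6, both on the minus strand, Rnf2 at chr1:151500992-151501241 and Ring1 at chr17:34024681-34024930) are shown for the same reason, a library 3 far from the other 7, with TGACG in capitals.
Rnf2: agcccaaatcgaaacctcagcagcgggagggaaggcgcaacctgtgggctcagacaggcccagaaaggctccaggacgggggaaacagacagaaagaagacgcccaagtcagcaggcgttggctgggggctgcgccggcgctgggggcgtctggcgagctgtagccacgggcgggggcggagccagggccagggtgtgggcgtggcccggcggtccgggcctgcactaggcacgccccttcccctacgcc
Ring1: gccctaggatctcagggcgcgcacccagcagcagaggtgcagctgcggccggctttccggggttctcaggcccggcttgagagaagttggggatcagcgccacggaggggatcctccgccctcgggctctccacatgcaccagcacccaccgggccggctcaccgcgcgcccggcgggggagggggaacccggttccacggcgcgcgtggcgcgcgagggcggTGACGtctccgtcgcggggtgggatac
Bmi1, the partner that activates the ligase in canonical PRC1, was the steadiest of the 40 genes, at 30.4 to 41.5 CPM, with an SD of 0.137 on the log2 scale, which is at percentile 0.787 of the genes kept. Its lowest value was in library 3, and the other 7 lay within 36.1 to 41.5 CPM.

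The chromobox proteins CBX2, CBX7 and CBX8 bring PRC1 to methylated histone H3. Cbx2 had 5.74 CPM in library 4b, a median of 10.4 CPM and 28.8 CPM in library 3. Cbx8 followed with 4.91, 7.38 and 20.2 CPM for the same 3 measures. Cbx7 had 7.44 CPM in library 6, a median of 11.6 CPM and 21.3 CPM in library 3. All had their top in library 3, and Cbx2 and Cbx8 had their lowest values in libraries 4a and 4b. No order of the chromobox genes was established. The log2 ratio was -0.57 ± 0.62 for Cbx7 to Cbx2 (exact permutation test, adjusted p = 0.0541) and -0.33 ± 0.58 for Cbx7 to Cbx8 (adjusted p = 0.184, exact permutation test), and both turned positive, to 0.20 and 0.57, with the longest protein-coding transcript as length, the latter being called (exact permutation test, adjusted p = 0.0426). Cbx8 was the only one of 37 listed genes with a RefSeq promoter whose 250 upstream bases held the whole palindrome TGACGTCA bound by ATF and CREB proteins, the family of the fusion partner Atf1. The 30 bases that hold it, chr11:119040924-119040953 (minus strand), lie upstream of the RefSeq start but inside the Cbx8 gene as GENCODE annotates it, and are shown with the palindrome in capitals.
Cbx8: gggaggagaacTGACGTCAgcgggagagta
The share of listed promoters with the palindrome, 1 of 37 or 2.7%, compares with 1.77% of 27025 genes and 3.20% of 8864 genes kept. TGACG, which the palindrome contains, was in 13 of 37 (35.1%), against 19.8% and 31.7%. TTTCCCGC was in 5 of 37 (13.5%: Arid1a, Brd7, Phf19, Smarcd1 and Suz12), against 1.03% and 2.14%, and TTTGGCGC in 0 of 37, against 0.485% and 0.959%. Both strands were searched in every case, and a match describes the letters, not a bound site. Cbx2, Ss18, Bcl7a, Arid2, Bicra and Smarce1 had no entry.

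Kdm2b, which brings variant PRC1 to CpG islands, differed most between library 3 and the rest. It had 85.8 CPM in library 3 and 10.1 to 16.9 CPM in the other 7, whose median was 12.1 CPM. Its exons share 627 bases with Rnf34 on the opposite strand. Among BET genes, Brd2 had 102 CPM in library 4a, a median of 131 CPM and 299 CPM in library 3, and Brd3 had 24.9 CPM in library 6, a median of 41.1 CPM and 105 CPM in library 3. Library 3 lay above the other 7 for both. Brd2 exceeded Brd3 per kb in 8 of 8 libraries by 1.66 ± 0.26 (log2; exact permutation test, adjusted p = 0.0146), in library 3 by 1.42.

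Differences among the 6 title numbers were tested across all genes with edgeR's quasi-likelihood F-test and Benjamini-Hochberg adjustment. None of the 40 listed genes and none of the 11505 genes was called at 0.05 (0 genes, 0%). The spread within a number came only from 2L with 2R and from 4a with 4b. A lack of calls therefore does not show that the tumors were alike. The smallest adjusted p of a listed gene was 0.0974, for Kdm2b. Without adjustment, 11 of 40 had p under 0.05 against 24.5% of all genes: Kdm2b, Bcl7a, Arid1b, Smarca2, Ezh2, Arid1a, Brd3, Smarcd1, Rnf2, Cbx8 and Smarca4. A share near the background is not a result about these genes. DESeq2's likelihood ratio test called 7 of 40 (Arid1a, Arid1b, Bcl7a, Brd3, Kdm2b, Smarca2 and Smarcd1) against 20.7% of all genes. When library 3 was left out, 2 listed genes (Bcl7a and Smarca2) had an unadjusted p under 0.05, against 12.8% of all genes, and when 4a or 4b was left out, 3 (Bcl7a, Kdm2b and Smarcd1), against 10.2% and 9.92%. When 2L or 2R was left out, so that 4a and 4b alone gave the spread, edgeR called 13 and 14 listed genes, against 38.7% and 39.3% of all genes.

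**Figure D4:**
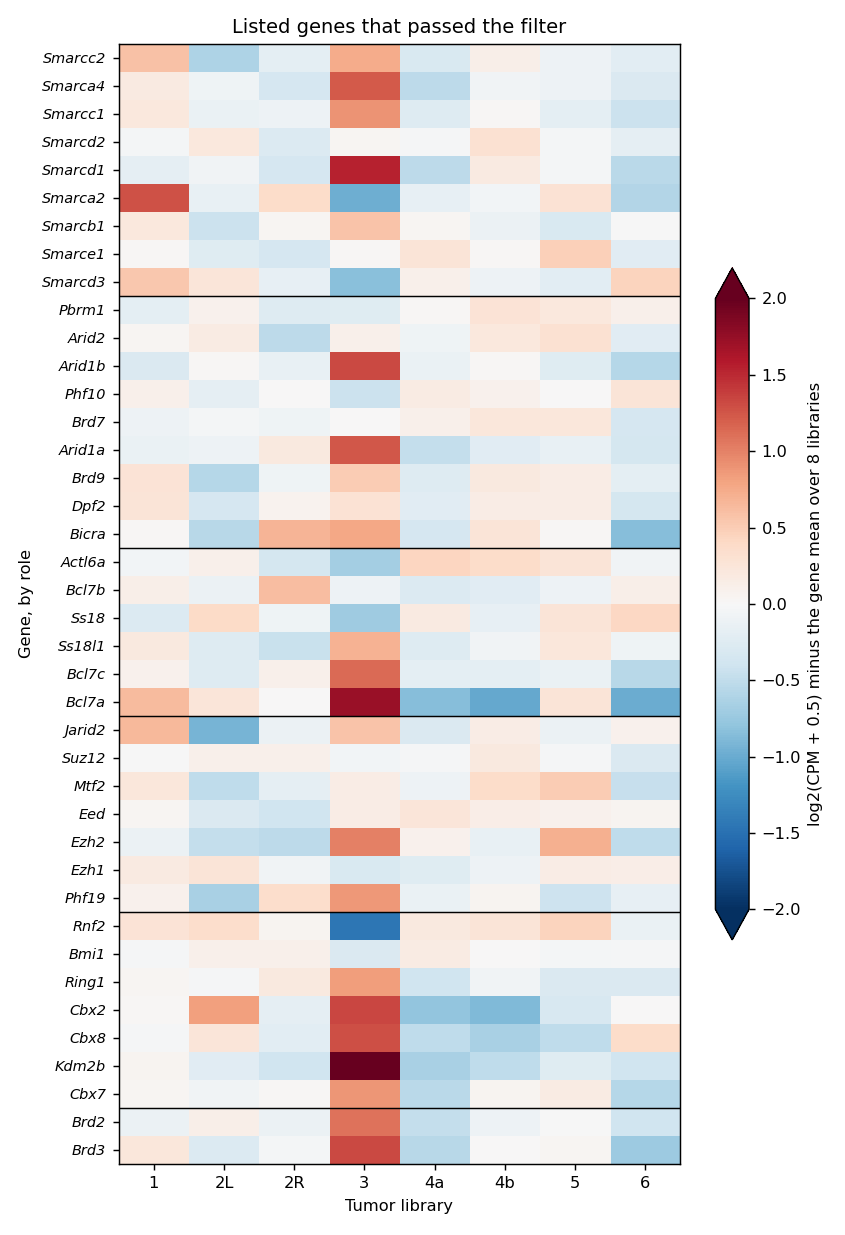
Log2 of CPM plus 0.5 for the 40 listed genes that passed the filter, each minus its own mean over the 8 libraries (red higher, blue lower), by role. Column 3 holds most of the strong colors, with Kdm2b and Bcl7a at the high end and Rnf2 at the low end; Smarca2 in library 1 and Cbx2 in libraries 4a and 4b stand out among the rest.

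The spread of the listed genes was below that of the median gene. Over all 8 libraries the median SD of log2 CPM was 0.433 for listed genes against 0.513 for all genes. It was 0.456 for 29 other chromatin genes that passed the filter, so a lower spread was not particular to the listed genes. The listed genes also had a higher median of mean CPM than all genes, and the part of this in the spread was not tested. Without library 3 the median SD was 0.266 for listed genes against 0.407 for all genes. Among the other 7 libraries the highest value was under 2 times the lowest for 30 of 40 listed genes, against 43.9% of all genes, and over all 8 for 12 of 40, against 22.7%. The genes that spread most over those 7 were Bcl7a (3.59 times), Smarca2 (3.64 times), Cbx2 (3.45 times), Jarid2 (3.03 times) and Bicra (2.98 times). Library 1 was the highest of the 7 for 12 of 40 listed genes, against 15.1% of all genes. These include Smarca2 and Jarid2, at 185 and 190 CPM against at most 98.7 and 133 CPM in the other 6. Library 5 was the highest for 8 of 40 (13.3% of all genes), Ezh2 among them. Library 6 was the lowest for 12 of 40, against 19.2%, among them Smarca2, Arid1b, Smarcc1 and Brd3. The macrophage markers summed to 3818 CPM in library 6 and to 275 to 1668 CPM in the others. Their part in the low values of library 6 was not tested.

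In library 3 the listed genes lay higher than genes in general, which is a description of 1 library against 7 with no test. The median listed gene was 0.65 above the mean of the other 7 on the log2 scale, while the median of all genes was -0.038, a difference of 0.69. The same difference ran from -0.25 to 0.056 in the other 7 libraries. In library 3, 29 of 40 listed genes lay above the median of all genes, against 50%, 15 were at least 2-fold higher than the mean of the others (18.5% of all genes), and 3 were at least 2-fold lower (19.7%), namely Rnf2, Smarca2 and Smarcd3. By role, the median difference was 0.65 for the BAF core, 0.33 for variant-defining subunits, 0.35 for the ATPase module, 0.17 for PRC2, 1.04 for PRC1 and 1.38 for BET genes. Library 3 was the highest of the 8 for 22 of 40 listed genes (29.6% of all genes) and the lowest for 8 (31.2%). Without a normalization factor it was the highest for 1 of 40 (3.58% of all genes), while the difference of the medians was 0.67, so only the position of listed genes relative to other genes is free of the factor. Among 29 other chromatin genes that passed, the median was 0.43, and library 3 was the highest for 13. Differences in library 3 went with GC content of the longest transcript. Spearman's rho was 0.31 across 11490 genes and 0.50 across the 40, points that share their libraries. Such relations were not particular to library 3. Against the mean of the others, which then includes library 3, 4a had rho of -0.31 and -0.66. Library 4b had -0.21 and -0.36, and library 5 had -0.19 and -0.59. In the rest rho ran from -0.14 to 0.12 for all genes and from -0.17 to 0.15 for listed genes. In library 3 the difference of medians was 0.64 after a linear adjustment for GC content. After it Rnf2, with a GC content of 39.5%, stood at -1.10 and Kdm2b, with 52.6%, at 2.57 on the log2 scale. Ring1 (56.9%) stood at 0.56. Smarca2 (51.1%) and Smarcd3 (59.2%) stood at -1.20 and -1.56. Depth, muscle transcripts and the share of ribosomal sequence also set library 3 apart, as did 18.7% of counts in mitochondrial coding genes (0.827% to 6.0% elsewhere) and macrophage markers at 275 CPM (948 to 3818 CPM elsewhere). Their part in these values was not tested.

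**Figure D5:**
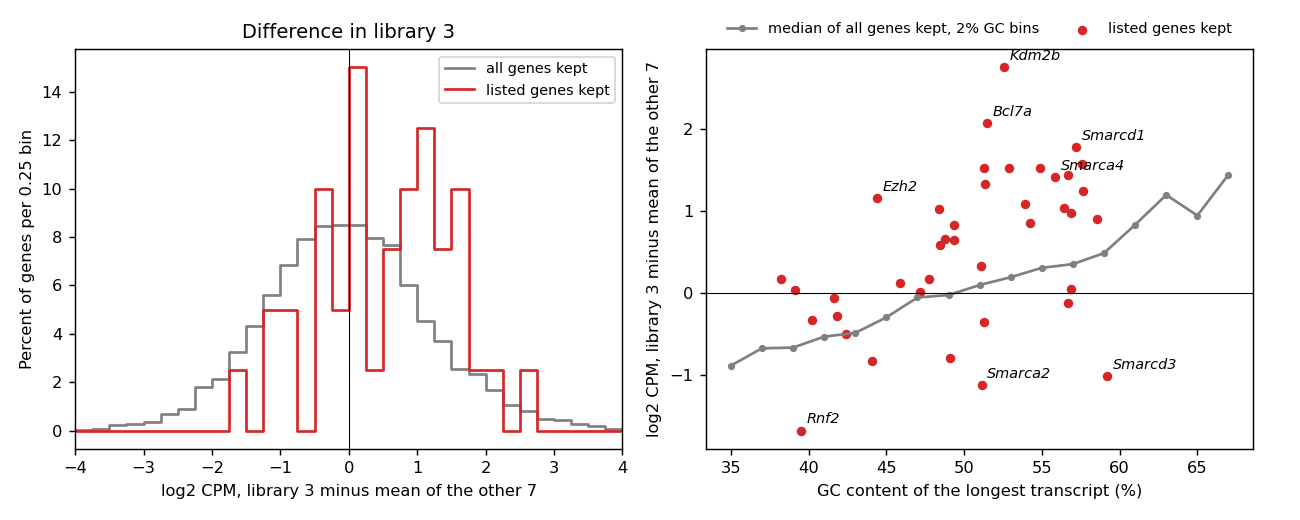
Left, distribution of the log2 CPM difference between library 3 and the mean of the other 7 for all 11505 genes kept (grey) and the 40 listed genes (red), in percent of genes per bin. Right, that difference against GC content for the listed genes (points) and the median of all genes in GC bins (line); the medians are 0.65 for listed and -0.038 for all genes, and Kdm2b, Bcl7a and Smarcd1 lie highest.

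Libraries that share a title number were compared for the listed genes. Between 2L and 2R, 1 listed gene was at least 2-fold higher in 2L (Cbx2, 9.03% of all genes) and 2 in 2R (Bicra and Phf19, 8.33% of all genes). Between 4a and 4b none of the 40 differed 2-fold in either direction, against 2.53% and 1.92% of all genes. The SD of the log2 difference was 0.479 for listed genes and 0.907 for all genes between 2L and 2R, and 0.275 and 0.486 between 4a and 4b. For the 29 other chromatin genes it was 0.567 in the first comparison and 0.370 in the second. Each is a comparison of 1 library with 1 other and has no test. Library 2L held 20860 CPM of muscle markers and 2R 113 CPM, and the listed genes had a median difference of 0.056 (log2) between them.

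Of 31 further chromatin genes found in the table, 29 passed the filter and 0 were called among numbers by edgeR. Of the 29, 7 had an unadjusted edgeR p under 0.05, a share near the 24.5% of all genes. The highest in level were Chd4, the ATPase of the NuRD complex, at 40.6 ± 4.65 CPM per kb (n = 8), Rbbp7 at 25.4 ± 7.29, Yaf2 at 17.0 ± 5.97 and Rbbp4 at 16.5 ± 3.55 CPM per kb. Rbbp4 and Rbbp7 are histone-binding partners of PRC2, and the mean of Rbbp7 lay above that of every PRC2 member of the list, the highest of which was Jarid2 at 13.1 ± 4.31 CPM per kb. The most variable were Smarca1, the ATPase of NURF, from 1.38 CPM in library 6 to 17.5 CPM in library 1, and Pcgf6, a variant PRC1 subunit, from 3.78 CPM in library 6 to 27.2 CPM in library 3. The highest value of Pcgf6 outside library 3 was 9.16 CPM.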

How the data were processed

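Total RNA of 8 tumors was sequenced after ribosomal RNA depletion, per the labels' protocols. The authors deposited raw counts per Ensembl gene, with cutadapt, STAR 2.7.5a, featureCounts, RSEM and the build mm10 in the submitters' processing notes; which tool made the counts and whether strand was used are not given in the sources used here. GENCODE M21 named 49412 of 49671 identifiers, and unnamed ones held at most 0.0215% of a library's counts.

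The main test was edgeR 4.0.16 in R 4.3.3 (TMM factors, filterByExpr for 1 group with a minimum of 10 counts, prior count 2, robust quasi-likelihood F-test of title number at 0.05), with DESeq2 1.42.0 as an alternative. The test was tried on simulated data. Levels divide CPM by the length of all exons of a gene. Pairs were tested with two-sided exact sign-flip tests of the within-library log2 ratio over 8 libraries, adjusted over 15 pairs, and relations with exact permutations over 6 numbers. A count of 0 allows up to 3 counts, or 1.60 CPM in library 3 and 0.467 CPM or less elsewhere; floors and intervals cover counting error only. Alternatives were other lengths, scalings, filters and prior counts, number means, and leaving out each library. The longest protein-coding transcript as length, and the scalings and GC adjustment of the library 3 difference, were added after seeing the data. Exons of 9 listed genes share at least 100 bases with an opposite gene of 1000 counts or more.

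The members, pairs and lists were chosen with earlier results of these data known. All 43 genes could be named; of other chromatin genes, the 4 of highest level and the 2 of largest SD, with 1 more not reported here; of a marker list, its leading genes.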

Additional observations from a re-analysis of the deposited data

Results flagged for a closer look

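In 15 of 55 sets of 8 values checked (40 genes and 15 pairs), the highest or lowest library was farther from the rest than Dixon's 95% limit allows, where chance flags about 1 in 20. Of these, 14 concerned library 3, so they are not independent of each other. On the log2 CPM scale, library 3 was far above the others for Smarca4 (8.34), Smarcd1 (6.21), Arid1a (7.62), Arid1b (8.11), Bcl7c (4.83), Kdm2b (6.42), Brd2 (8.22) and Brd3 (6.72). It was far below them for Rnf2 (4.23). For Bmi1 (4.93) it was only slightly below, at 30.4 CPM from 57 counts against 36.1 to 41.5 CPM. Bmi1 was flagged because its other 7 values lie very close together. Log2 ratios within a library need no normalization factor. Among them, library 3 stood apart for Smarca4 over Smarca2 (4.20), Smarcd1 over Smarcd2 (0.67), Smarcd1 over Smarcd3 (4.26) and Rnf2 over Ring1 (-0.47). Such ratios can still carry a relation with GC content, whose part in them was not tested. The remaining value outside the limit was Bcl7b in library 2R (4.30 on the log2 scale). It had 19.6 CPM there, against 11.5 CPM in library 2L, which carries the same number.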

How the results depend on the processing

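Of 297 values under alternatives, 244 kept their direction and side of the threshold, or stayed within the spread or 1.5 times the main value. No paired analysis was possible because the labels name 1 group, so no second group shares its numbers. Library 3 is the shallowest. Its counts of 0 to 38 for Dpf1, Dpf3, Smarcd3, Actl6a, Actl6b, Rnf2, Ring1, Cbx8 and Ss18l1 limit the precision of their ratios there. Bcl7a, Bcl7b and Phf19, in no ratio, also had only 38, 22 and 13 counts in library 3.

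Counts of called genes depended on the filter, the test and the libraries. Of all genes, 0 of 11505 were called, against 6260 of 30321 with no filter beyond 1 count and 2383 of 11505 (20.7%) with DESeq2. When a library was left out, 0 to 4548 were called (4457 or 38.7% without 2L, 4548 or 39.3% without 2R). Of listed genes, 0 of 40 were called, against 8 of 43 with no filter and 7 of 40 with DESeq2. When a library was left out, 0 to 14 were called (13 of 40 without 2L, 14 of 40 without 2R). The listed genes with an unadjusted edgeR p under 0.05, 11 of 40, ranged from 2 of 41 (without library 3) to 17 of 40 (without 2R). Of all genes, 24.5% had such a p, against 12.8% without library 3 and 5756 of 11584 without 2R. The median SD of listed genes ranged from 0.266 (without library 3) to 0.466. The median level percentile was 59.5 with the longest transcript as length, 60.2 with the longest protein-coding transcript and 58.3 without length scaling.

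With means of the 6 numbers, where a raw p cannot go below 0.0312, 12 called ratios no longer passed: Smarca4 to Smarca2 2.07, Smarcc1 to Smarcc2 -1.03, Smarcd1 to Smarcd2 -0.76, Smarcd1 to Smarcd3 1.89, Arid1a to Arid1b -0.25, Dpf2 to Dpf1 4.39, Dpf2 to Dpf3 3.29, Ss18 to Ss18l1 1.21, Actl6a to Actl6b 5.61, Brd9 to Brd7 -1.05, Rnf2 to Ring1 1.75 and Brd2 to Brd3 1.64. With the longest transcript, Arid1a to Arid1b reversed to 0.055, and Ezh2 to Ezh1 (0.64) and Cbx7 to Cbx2 (-0.63) became called. With the longest protein-coding transcript, Arid1a to Arid1b (0.055), Cbx7 to Cbx2 (0.20) and Cbx7 to Cbx8 (0.57) reversed, Smarcd1 to Smarcd3 (0.54) and Brd9 to Brd7 (-0.14) no longer passed, and Ezh2 to Ezh1 (0.64) became called. Cbx7 to Cbx2 ranged from -0.71 (called without 4b) to -0.44 when a library was left out.

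Without a normalization factor the correlations with the proliferation score reversed for Ezh1 (0.31), Smarca2 (0.40) and Ezh2 to Ezh1 (-0.10). When a same-number library was left out, r ranged from 0.73 to 0.81 for Ezh2 (called without 4a, 0.79), from -0.89 to -0.80 for Ezh1 (called without 2L and without 2R), from 0.74 to 0.98 for Smarca4 (called without 4a) and from 0.86 to 0.90 for Ezh2 to Ezh1 (called without 2R and without 4a). The cause of these differences was not tested.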
